A study of Mus musculus with 24 samples.

Results

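In mouse kidney, males had more RNA of amnionless and less RNA of megalin and cubilin than females, while between the active and the inactive period Dab2 alone of the 5 genes passed the test, and it was lower in the active period in each sex. The 5 genes are Lrp2, Cubn, Amn, Dab2 and Clcn5, which build and run the protein uptake machinery of the proximal tubule. They were taken by name from the 56748 gene identifiers of the deposited table, with earlier results of these data known. All 5 were found, and all 5 passed the filter of a mean of at least 10 normalized counts. The study sequenced poly A RNA of mouse kidneys in 24 libraries, with 6 libraries for each sex in each period and the periods sampled at their midpoint. The labels name no drug and no genetic change, and the sources used here do not name the strain, the age, the feeding or the light schedule. Nothing in them states that each library is a separate animal, so p-values measure the spread between these libraries, which may be partly technical.

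Megalin, the product of Lrp2, is a very large receptor of the lipoprotein receptor family on the apical face of proximal tubule cells. It takes filtered proteins such as albumin, vitamin carriers and hormones out of the urine. Cubilin, the product of Cubn, binds many of the same proteins but has no membrane anchor of its own, and amnionless, the product of Amn, carries it to the surface and holds it there. Dab2 is the adaptor that links receptor tails to clathrin. Clcn5 encodes ClC-5, an exchanger of chloride and protons in early endosomes, whose loss in people causes Dent disease with loss of small proteins into urine. In bulk kidney RNA, fewer cells of a type and less RNA per cell cannot be told apart.

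The libraries held 31.04 to 39.3 M recovered reads, and 59993 to 110294 of these fell on Lrp2, 13314 to 25016 on Dab2, 9325 to 18288 on Cubn, 3485 to 4771 on Clcn5 and 970 to 1660 on Amn. All values below are the authors' normalized counts, which are reads divided by 1 size factor per library. On that scale the summed counts were 29.6 to 32.4 M in females and 35.97 to 39.5 M in males, which bears on each comparison of the sexes. Under a scaling to equal totals the median log2 fold of all genes between the sexes moved by -0.27 in the active and -0.28 in the inactive period. The share of called genes that were higher in males then went from 49.7% to 23.0% in the active and from 50.1% to 18.5% in the inactive period, and with the upper quartile it was 41.7% and 41.0%.

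Per kilobase of exon, Lrp2 was the most abundant of the 5 and Clcn5 the least. The mean levels over the 24 libraries were 4903 normalized counts per kilobase for Lrp2, 2590 for Dab2, 888 for Cubn, 658 for Amn and 355 for Clcn5. Among 16998 genes with a known length, Lrp2 ranked 248 and Clcn5 ranked 3909. The ranges of Lrp2, Dab2 and Cubn over the 24 libraries did not overlap on this scale, at 4083 to 6387, 2191 to 3074, and 718 to 1119 per kilobase. With the length of the longest transcript in place of all exons the mean of Dab2 was 4078 and that of Lrp2 5297, their ranges overlapped (3449 to 4839 and 4410 to 6899), and Dab2 was above Lrp2 in 1 of 24 libraries, inactive male replicate 1. Amn and Cubn were neighbours among the 5, with a higher ratio of Amn to Cubn in males than in females. Amn was below Cubn per kilobase in all 12 female libraries, at 0.532 ± 0.039 of the Cubn level in active and 0.514 ± 0.047 in inactive females. In males the ratio was 1.08 ± 0.12 in the active and 0.933 ± 0.166 in the inactive period, with Amn above Cubn in 4 of 6 and 1 of 6 libraries. With the longest transcript, Amn was above Cubn in 1 of 6 libraries of each male group, so in active males their order rests on the length used.

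**Figure D1:**
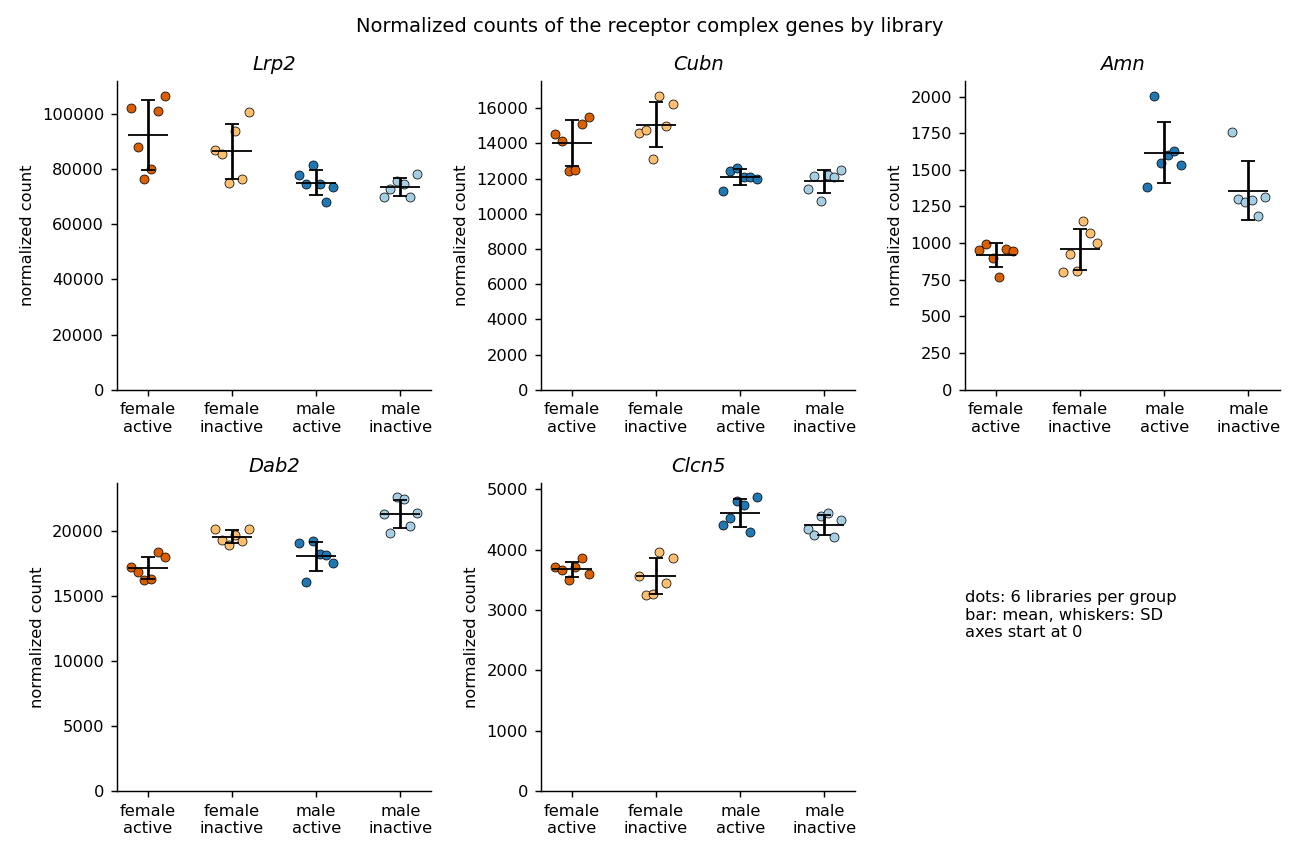
Normalized counts (vertical axes, each from 0) of Lrp2, Cubn, Amn, Dab2 and Clcn5 in the 6 libraries of each group; dots are libraries, the bar is the mean and whiskers are the SD. Amn and Clcn5 are higher in both male groups than in both female groups, and Dab2 is lower in the active than in the inactive period in each sex.

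Lrp2, the main receptor, was lower in males in each period and did not pass between the periods. In active females it lay between 76618 and 106664 normalized counts with a median of 94659.6, and in inactive females between 74862 and 100840.0 with a median of 86139. Active males lay between 68184 and 81584 (median 74599) and inactive males between 69862 and 78367 (median 73699.7). The female libraries were spread more widely, with a coefficient of variation of 13.6% and 11.5% against 5.97% and 4.58% in males, and the lower female libraries fell within the male range. The log2 fold of males over females was -0.29 ± 0.07 (SE, adjusted p = 0.00122) in the active and -0.23 ± 0.07 (adjusted p = 0.0109) in the inactive period. Between the periods the log2 fold of active over inactive was 0.09 in females (95% interval -0.06 to 0.25, adjusted p = 0.453) and 0.03 in males (-0.12 to 0.18, adjusted p = 0.835).

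Cubn, the partner receptor, was also lower in males. Its lowest, median and highest normalized counts were 12427, 14329.5 and 15505 in active and 13126, 14867 and 16709 in inactive females. For males they were 11286, 12091 and 12607 in the active and 10719.7, 12132 and 12471 in the inactive period. In the inactive period every male library was below every female one, and in the active period 2 female libraries fell within the male range. The log2 fold of males over females was -0.21 ± 0.06 (adjusted p = 0.00255) in the active and -0.35 ± 0.06 (adjusted p = 9.58e-06) in the inactive period. Neither period contrast passed, at -0.10 in females (95% interval -0.22 to 0.02, adjusted p = 0.258) and 0.03 in males (-0.09 to 0.15, adjusted p = 0.775). Under equal totals the 4 sex folds of Lrp2 and Cubn kept their sign and call, at -0.57 and -0.49 in the active and -0.51 and -0.63 in the inactive period.

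Amn, the membrane anchor of cubilin, went the other way. It had the greatest sex difference of the 5 on the deposited scale and with TMM and the upper quartile, but not under equal totals, where Lrp2 differed more in the active period and Cubn and Lrp2 in the inactive period. Female libraries lay at 768 to 993 normalized counts in the active (median 949) and 803 to 1151 in the inactive period (median 962). Male libraries lay at 1382 to 2005 (median 1576) and 1188 to 1757 (median 1298). Every male library was above every female one of the same period. Males were 1.75-fold higher in the active period (log2 fold 0.81 ± 0.10, adjusted p = 3.08e-08) and 1.42-fold higher in the inactive period (0.50 ± 0.10, adjusted p = 6.26e-05). The call held under equal totals too, where the log2 folds were 0.53 (adjusted p = 5.69e-06) and 0.22 (adjusted p = 0.0306).

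Between the periods Amn did not pass in either sex. The log2 fold was -0.05 in females (95% interval -0.25 to 0.14, adjusted p = 0.792) and 0.26 ± 0.10 in males (0.06 to 0.45, adjusted p = 0.0685). The male result rests on single libraries. Without inactive male replicate 1, at 1757 the highest of its group, the log2 fold was 0.33 (adjusted p = 0.0103), and without active male replicate 1, at 1382 the lowest of its group, it was 0.30 (adjusted p = 0.0332). The difference between the sexes in the period change of Amn was 0.31 ± 0.14 by limma (95% interval 0.03 to 0.58, adjusted p = 0.212).

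Dab2, the clathrin adaptor, was lower in the active period in females and in males. Its lowest, median and highest normalized counts were 16193, 17047 and 18339 in active females and 18889.7, 19488 and 20166 in inactive females. In males they were 16084, 18203 and 19183 in the active and 19799.8, 21326 and 22566 in the inactive period. In each sex the highest active library was below the lowest inactive one. The log2 fold of active over inactive was -0.19 ± 0.05 (adjusted p = 0.00475) in females and -0.24 ± 0.05 (adjusted p = 7.97e-04) in males, which is 0.876 and 0.846 of the inactive level. Over all 17333 genes tested, 15.0% were called in females and 15.4% in males. Calls as lower took 6.98% and 6.95%, calls as higher 7.97% and 8.43%, and 7.83% and 4.29% had groups that did not overlap. Among the 5 genes 1 was called in each sex, which is Dab2 each time. With the 3 other scalings the Dab2 period folds lay between -0.27 and -0.20 and stayed called.

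The sex difference of Dab2 was small and depended on the scaling. On the deposited scale the log2 fold of males over females was 0.07 ± 0.05 (adjusted p = 0.186) in the active and 0.12 ± 0.05 (adjusted p = 0.0271) in the inactive period. The inactive call was lost without inactive female replicate 3 or inactive male replicate 3 or 4, with log2 folds of 0.11 each, and the active one was gained without active male replicate 2, at 0.10. With the upper quartile it was 0.00 and 0.05 and not called (adjusted p = 0.963 and 0.339), and under equal totals it was -0.20 (adjusted p = 1.94e-04) and -0.16 (adjusted p = 0.00275), lower in males. The median of all genes under equal totals was -0.32 in each period, so Dab2 lay above it under each scaling.

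Clcn5, the endosomal exchanger, was higher in males on the deposited scale. In females it lay at 3502 to 3869 normalized counts in the active (median 3683) and 3244 to 3963 in the inactive period (median 3507), and in males at 4287 to 4863 (median 4635) and 4202 to 4608 (median 4414). Male and female libraries did not overlap in either period. The log2 fold of males over females was 0.32 ± 0.05 (adjusted p = 1.53e-06) in the active and 0.31 ± 0.05 (adjusted p = 3.55e-06) in the inactive period. It stayed called with TMM (0.33 and 0.30) and with the upper quartile (0.25 and 0.24). Under equal totals it was 0.05 (adjusted p = 0.338) and 0.03 (adjusted p = 0.547), beside a median of -0.32 over all genes in each period. Between the periods the log2 fold was 0.05 in females (95% interval -0.05 to 0.15, adjusted p = 0.570) and 0.06 in males (-0.04 to 0.16, adjusted p = 0.418).

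**Figure D2:**
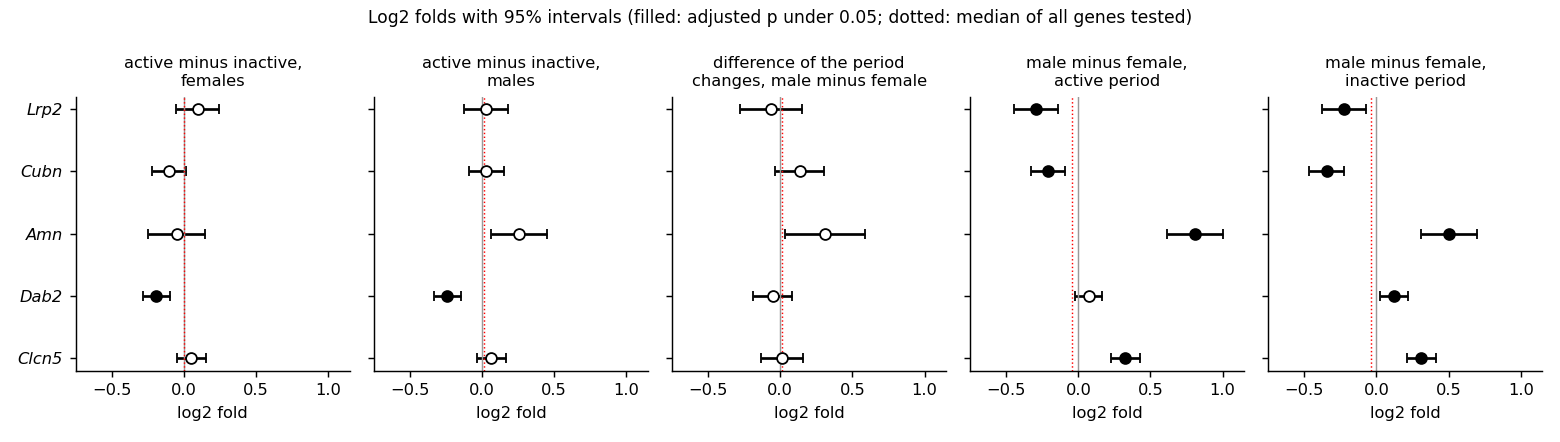
Log2 folds (horizontal axes) of the 5 genes in the 5 contrasts with 95% intervals; filled points passed at an adjusted p under 0.05, and the dotted line is the median of all 17333 genes tested. Dab2 is the filled point in the 2 period panels, the difference of period changes has none, and 4 and 5 of the 5 genes are filled in the sex panels.

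Between the sexes 4 of the 5 genes were called in the active and 5 in the inactive period, against 60.6% and 55.7% of all genes tested, so a call by itself says little of these genes. Calls as higher in males were 2 and 3 of the 5 against 30.1% and 27.9% of all genes, and calls as lower 2 and 2 against 30.5% and 27.8%. Groups did not overlap for 2 and 3 of the 5, against 36.3% and 32.3% of all genes. The median of the 5 log2 folds was 0.07 and 0.12, beside -0.05 and -0.04 over all genes. A difference between the sexes in the period change was called for 0 of the 5 by limma, edgeR and DESeq2, with 1 at an unadjusted p under 0.05 by limma, where 2.71% of all genes were called, 1.41% as higher and 1.30% as lower.

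**Figure D3:**
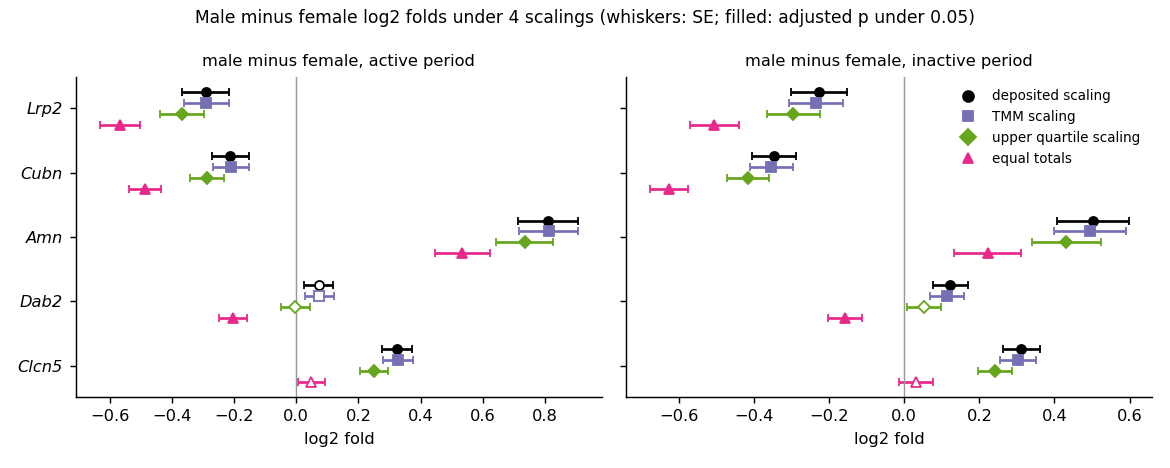
Male minus female log2 folds (horizontal axes) of the 5 genes under the deposited scaling and 3 others, with the SE as whiskers and filled points for an adjusted p under 0.05. Lrp2 and Cubn are below 0 and Amn above 0 under all 4, Clcn5 loses its call under equal totals, and Dab2 is below 0 there.

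Ratios to Lrp2 within a library do not depend on its scaling, and they show how far the partners moved with megalin. All 16 ratio tests share Lrp2 as the denominator, and the smallest two-sided p of the exact permutation test of 6 against 6 libraries is 0.00216. Relative to Lrp2, Amn was 2.14-fold higher in active males than in active females (log2 ratios -5.54 ± 0.22 and -6.64 ± 0.16, SD) and 1.66-fold higher in inactive males (-5.77 ± 0.23 and -6.50 ± 0.21). Clcn5 was 1.53-fold and 1.45-fold higher relative to Lrp2, and Dab2 was 1.29-fold and 1.27-fold higher. In these 6 cases the male and female libraries did not overlap, and each adjusted p was 0.00495 by the exact permutation test. Cubn stayed closer to Lrp2, with differences in the log2 ratio between the sexes of 0.08 in the active (exact permutation test, adjusted p = 0.199) and -0.12 in the inactive period (adjusted p = 0.0693). The latter passed at -0.14 without inactive female replicate 6 or without inactive male replicate 5.

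Between the periods the Cubn to Lrp2 ratio was lower in active females by a log2 difference of -0.20 (exact permutation test, adjusted p = 0.00866). In males the difference was 0.00 (adjusted p = 0.991, exact permutation test). Whether the period change of this ratio differed between the sexes was not tested. The Dab2 to Lrp2 ratio was lower in the active period in females (-0.28, adjusted p = 0.0192) and in males (-0.27, adjusted p = 0.00495), both by exact permutation. Ratios of Amn and Clcn5 did not pass between the periods in either sex, though Amn in males passed at a log2 difference of 0.32 without inactive male replicate 1.

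**Figure D4:**
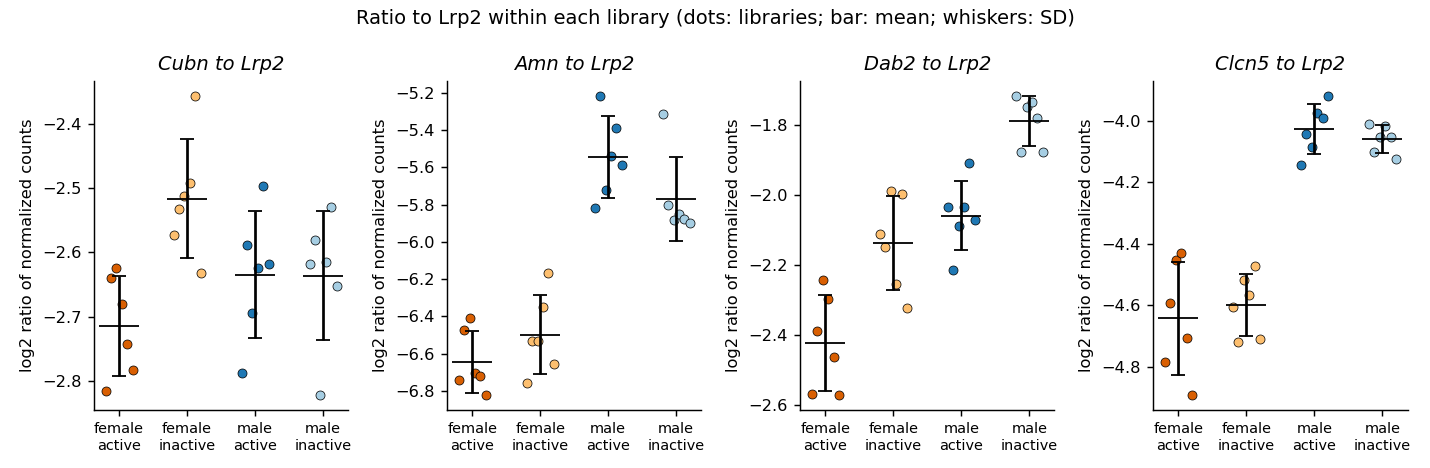
Log2 ratio of normalized counts to Lrp2 within each library (vertical axes, which do not start at 0) for Cubn, Amn, Dab2 and Clcn5; dots are libraries, the bar is the mean and whiskers are the SD. The male libraries lie above the female ones of the same period for Amn, Dab2 and Clcn5 and among them for Cubn.

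Within the groups the libraries with more Lrp2 also had more Cubn, mainly in females. After each group mean was subtracted, Pearson's r of the log2 values over the 24 libraries was 0.75 (permutation adjusted p = 0.00530 over 10 pairs) and Spearman's rho was 0.74 (adjusted p = 0.00260), and r was 0.68 without the 2 libraries farthest from the median of Lrp2. By group r was 0.96 in active and 0.83 in inactive females, and 0.08 and 0.10 in active and inactive males. The r of the female groups was high and that of the male groups, whose spread was smaller, was near 0, and whether these values differ was not tested. Lrp2 went with Dab2 (r = 0.59, permutation adjusted p = 0.00590, rho = 0.70, adjusted p = 0.00260) and with Clcn5 (r = 0.58, permutation adjusted p = 0.0203, rho = 0.59, adjusted p = 0.0184). Without the 2 farthest libraries these were 0.55 and 0.49. Lrp2 with Amn had r = 0.20 (permutation adjusted p = 0.394, rho = 0.22, adjusted p = 0.424). Cubn with Amn had r = 0.47 (permutation adjusted p = 0.0512, rho = 0.49, adjusted p = 0.0480). By group that r was 0.71 in active and 0.81 in inactive females, and 0.64 in active and -0.30 in inactive males. Amn had r = -0.13 with Dab2 and 0.25 with Clcn5 (permutation adjusted p = 0.560 and 0.394). By group the r of Amn with Dab2 ranged from -0.87 to 0.55. Cubn with Dab2 had r = 0.26 (permutation adjusted p = 0.295), with group values from -0.47 in inactive males to 0.94 in active females. Cubn with Clcn5 had r = 0.48 and Dab2 with Clcn5 r = 0.40 (permutation adjusted p = 0.0512 each). Their rho was 0.50 and 0.47 (adjusted p = 0.0472 each). The values share library, depth and size factor, so a part common to all genes of a library enters each r.

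The genes most like each of the 5 in these within-group deviations, of 12402 with a mean of at least 50, are given as a description. For Lrp2 these included Ghr, the growth hormone receptor (r = 0.89), and Tm9sf2 (r = 0.88). For Cubn they were Sntg2 (r = 0.83), Sec14l3 (r = 0.79) and Slc35b4 (r = 0.78), and for Amn they included Gnl1 (r = 0.85) and the transglutaminase gene Tgm2 (r = 0.83). Dab2 had Col4a3, a basement membrane collagen gene (r = 0.84), Slc25a16 (r = 0.83) and Timp3, an inhibitor of metalloproteinases (r = 0.82). Clcn5 had the translation factor gene Eif4g2 (r = 0.85) and the Golgi traffic genes Golph3 (r = 0.82) and Rab1a (r = 0.80). None of the 5 genes was among the 3 most like another.

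The sequences before the start sites of Amn and Dab2 are shown because Amn was higher in males under each scaling and Dab2 differed between the periods, and because the 7 RefSeq start site windows of the 5 genes held only 2 matches, 1 in each. Each window reaches from 250 bases before to 50 bases after a start in build GRCm38.p6, and the 250 bases before it are printed. The E-box CACGTG, the nuclear receptor element AGGTCA and GTTAAT, part of the site of the HNF1 factors, were searched on both strands, with the match in capitals.
Amn, chr12:111270846-111271095, plus strand: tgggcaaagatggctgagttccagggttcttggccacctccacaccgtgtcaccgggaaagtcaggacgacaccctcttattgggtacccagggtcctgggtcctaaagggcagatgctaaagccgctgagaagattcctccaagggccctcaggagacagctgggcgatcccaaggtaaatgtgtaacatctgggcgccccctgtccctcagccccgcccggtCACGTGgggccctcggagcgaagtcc
Dab2, the second of its 2 starts, chr15:6386498-6386747, plus strand: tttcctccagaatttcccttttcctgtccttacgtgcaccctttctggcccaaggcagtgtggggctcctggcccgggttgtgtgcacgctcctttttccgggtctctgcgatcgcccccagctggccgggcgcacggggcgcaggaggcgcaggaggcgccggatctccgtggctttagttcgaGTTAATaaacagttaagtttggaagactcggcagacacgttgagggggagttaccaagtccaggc
The E-box of Amn begins 26 bases before the start, and 7.15% of all 32851 windows hold this motif. The GTTAAT of Dab2 begins 65 bases before the start, and 7.10% of all windows hold it. AGGTCA, which 16.3% of windows hold, was in none of the 7. Which start is used in these kidneys was not measured.

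Around these genes, 78 others of the endocytic route were taken as lists (other uptake receptors, clathrin coat, endosome sorting, proton pump and lysosome). Between the periods the active females had 13 of the 78 higher and 4 lower, with 61 that did not pass, and the active males had 7 higher and 8 lower, with 63 that did not pass. Over all genes tested, 7.97% were called higher and 6.98% lower in active females, and 8.43% and 6.95% in active males. The median log2 fold of the 78 was 0.02 and 0.03, beside 0.00 and 0.01 over all genes. By limma 4 of the 78 were called for a difference between the sexes in the period change, 2 higher and 2 lower. Of all genes tested, 2.71% were so called, 1.41% as higher and 1.30% as lower. In males against females 49 of the 78 were higher and 15 lower in the active period, and 47 higher and 7 lower in the inactive period, with medians of 0.20 and 0.24 beside -0.05 and -0.04 over all genes. Over all genes tested, 30.1% were called higher and 30.5% lower in the active, and 27.9% and 27.8% in the inactive period. The sex counts of the 78 turn with the scaling, at 25 higher and 34 lower in the active and 16 higher and 34 lower in the inactive period under equal totals, where the medians were -0.07 and -0.04 beside -0.32 over all genes. Of all 17333 genes, 2635 were then higher and 8822 lower in the active, and 2051 and 9054 in the inactive period. The list and marker counts below stand beside the same shares of all genes.

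Of 7 other uptake receptors and their chaperone, 1 was higher and 2 were lower in active females, and 1 was higher and 1 lower in active males. Tfrc, the transferrin receptor, was at 4630.1 ± 507 normalized counts in active and 2606 ± 368 in inactive females (log2 fold 0.83 ± 0.11, adjusted p = 1.11e-05) and at 6314 ± 820.2 and 4178 ± 757 in males (0.60 ± 0.11, adjusted p = 7.74e-04). Fcgrt, the neonatal Fc receptor that salvages albumin and IgG, was lower in active females (-0.25 ± 0.07, adjusted p = 0.0138) and at -0.04 in males (adjusted p = 0.753). Its period change was not called as different between the sexes by limma (adjusted p = 0.249). That contrast was called for 0 of the 7, with 3 at an unadjusted p under 0.05. Between the sexes 5 of the 7 were higher in males in each period, and 1 was lower in the active and 0 in the inactive period. Under equal totals 3 and 4 were higher and 1 and 2 lower. Lrpap1, the chaperone that guards megalin on its way to the surface, was at 18710.3 ± 2181 in active males and 10782 ± 1359 in active females (log2 fold 0.80 ± 0.08, adjusted p = 4.03e-10), so it was higher where Lrp2 was lower. Folr1, the folate receptor, was higher in males in the active (0.75 ± 0.06, adjusted p = 6.73e-12) and in the inactive period (0.62 ± 0.06, adjusted p = 4.56e-10).

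The clathrin coat and its adaptors numbered 18, of which 4 were higher in active females, and 2 were higher and 2 lower in active males. Cltb, a clathrin light chain gene, was higher in the active period in females (log2 fold 0.21 ± 0.06, adjusted p = 0.00899) and in males (0.37 ± 0.06, adjusted p = 4.97e-05), without overlap of the groups in either. Ap2a2, a subunit of the AP-2 adaptor, rose in females (0.22 ± 0.05, adjusted p = 0.00264) and was at 0.10 in males (adjusted p = 0.199). Fcho2, which starts coated pits, fell in males (-0.32 ± 0.07, adjusted p = 0.00244) and was at -0.04 in females (adjusted p = 0.753). For neither was a difference between the sexes in the period change called by limma (adjusted p = 0.355 and 0.114). Of the 18, 1 was called for such a difference, as lower, and that call held in 7 of 10 alternative fits other than leaving out 1 library. Between the sexes 9 were higher in males in each period and 5 and 2 were lower, while under equal totals 5 and 2 were higher and 10 and 10 lower.

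Among 22 genes of endosome sorting, 6 were higher and none lower in active females, and 1 was higher and 3 lower in active males. Rabep1 (log2 fold 0.21 ± 0.05, adjusted p = 0.00292) and Eea1 (0.29 ± 0.07, adjusted p = 0.00770), which serve Rab5 on early endosomes, rose in females. In males Appl2, which also serves Rab5, fell (-0.26 ± 0.07, adjusted p = 0.00842). The period change differed between the sexes for 1 of the 22, Vps35 of the retromer coat (-0.29 ± 0.06, adjusted p = 0.0118). For Rabep1, Eea1 and Appl2 such a difference was not called. Inpp5b, a phosphatase related to the Lowe syndrome gene Ocrl, was higher in males in each period (0.61 ± 0.05 and 0.67 ± 0.05, adjusted p = 3.77e-11 and 5.62e-12). Appl2 was lower in males in the active period (-0.76 ± 0.07, adjusted p = 4.07e-11). Of the 22, 10 were higher and 7 lower in males in the active, and 13 higher and 3 lower in the inactive period. Under equal totals the counts were 6 and 12, and 3 and 11.

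The 16 common subunits of the vacuolar proton pump, which acidifies endosomes beside ClC-5, had 2 higher in active females and 3 higher in active males. By limma 2 of the 16 were called for a difference between the sexes in the period change, both as higher. These 2 calls held in 9 and 8 of 10 alternative fits other than leaving out 1 library. Atp6v0a2, a membrane subunit of the pump, rose in females from 1576 ± 164 to 2010.0 ± 164 normalized counts (log2 fold 0.35 ± 0.06, adjusted p = 9.57e-05). It was also higher in active than in inactive males (0.19 ± 0.06, adjusted p = 0.0300). That male call held in 10 of 11 alternative fits other than leaving out 1 library. In males against females 14 were higher and 1 lower in the active, and 12 higher and 1 lower in the inactive period, but under equal totals the counts were 4 and 3, and 1 and 5. Of 16 lysosome genes, 2 were lower in the active period in each sex. Neu1, the lysosomal sialidase, was lower in active females (-0.28 ± 0.06, adjusted p = 6.57e-04) and active males (-0.25 ± 0.06, adjusted p = 0.00360), and Lgmn, the protease legumain, was lower in active females (-0.33 ± 0.05, adjusted p = 5.57e-05). A difference between the sexes in the period change was called for 0 of the 16 lysosome genes by limma, with 4 at an unadjusted p under 0.05. Neu1 was also higher in males in the active (0.82 ± 0.06) and in the inactive period (0.79 ± 0.06).

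**Figure D5:**
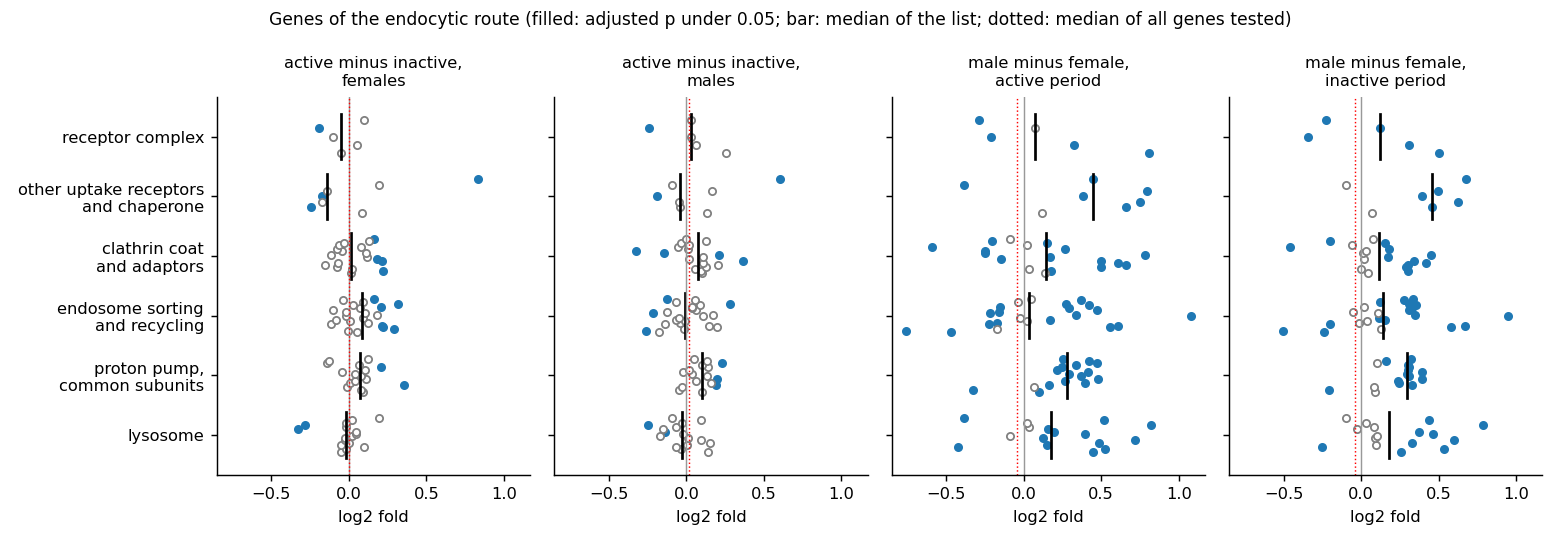
Log2 folds (horizontal axes) of the 5 genes and of the lists around them in 4 contrasts on the deposited scale; dots are genes, filled at an adjusted p under 0.05, the bar is the median of the list and the dotted line the median of all genes tested. The proton pump dots lie mostly above 0 in the sex panels, a position that does not hold under equal totals.

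Of 14 tested ligands of these receptors that are filtered or made in the tubule, none passed between the periods in females by limma, edgeR or DESeq2, with 2 at an unadjusted p under 0.05, and 2 were higher and 2 lower in active males. Selenop, the selenium carrier, was at 70176 ± 4293 normalized counts in active and 83388 ± 6205 in inactive males (log2 fold -0.25 ± 0.05, adjusted p = 0.00239). In females it was at 23224 ± 1483 in the active and 21901 ± 1135 in the inactive period, and the period change differed between the sexes (-0.33 ± 0.08, adjusted p = 0.0171). Gc, the vitamin D binding protein, was at 778 ± 60.3 in active and 1057 ± 187 in inactive males and at 4049 ± 219 in active females. These are levels in kidney RNA and not of filtered protein. Lrp8, a relative of megalin, was lower in males than in females in the active period (log2 fold -1.58 ± 0.21, adjusted p = 2.90e-07). In the CLC family Clcn2 was lower (-0.66 ± 0.09, adjusted p = 4.60e-06) and Clcn6 higher (0.40 ± 0.07, adjusted p = 1.06e-04) in active than in inactive females. Clcn2 was also lower in active males (-0.28 ± 0.09, adjusted p = 0.0365), a call that held in 9 of 11 alternative fits other than leaving out 1 library. A difference between the sexes in the period change was called for 0 of 8 genes of this list by limma and for 4 by DESeq2. Clcn7 of lysosomes and Clcn3 of endosomes were higher in males in the active period, at log2 folds of 0.53 ± 0.06 and 0.49 ± 0.06, and Clcn6 was lower in males (-0.69 ± 0.07, adjusted p = 4.17e-10). In all, 3 of the 8 tested genes of the CLC family list, which leaves out Clcn5, were higher and 3 lower in males in that period, against 30.1% and 30.5% of all genes.

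Of 10 transcription factors of the proximal tubule and nuclear receptors for lipids or retinoids, 2 were lower in active females, and 2 were higher and 4 lower in active males. Ppara, the fatty acid sensor, was lower in the active period in females (log2 fold -0.54 ± 0.11, adjusted p = 8.03e-04) and in males (-0.57 ± 0.11, adjusted p = 8.43e-04). Hnf4a, a master factor of proximal tubule cells, was higher in active than in inactive males (0.24 ± 0.05, adjusted p = 0.00325), and higher in males than in females in the active (0.72 ± 0.05, adjusted p = 1.48e-12) and inactive period (0.50 ± 0.05, adjusted p = 3.83e-09). A difference between the sexes in the period change was called for 0 of these 10 by limma, with 3 at an unadjusted p under 0.05.

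The summed level of 15 markers of the proximal tubule, where the 5 genes act, was 361847 ± 35583 and 400109 ± 18965 in active and inactive females, and 663380 ± 45818 and 630395 ± 19902 in the male groups, and no marker was at 0. The male over female log2 folds of the 15 ranged from -1.07 to 9.85 (median 0.59) in the active period. In the inactive period they ranged from -1.03 to 9.61 (median 0.38), so the sums do not stand for all markers alike. Of the 15, 11 were higher and 2 lower in males in the active, and 10 higher and 5 lower in the inactive period, and under equal totals 10 were higher and 4 lower, and 6 higher and 5 lower. Between the periods 2 were lower in active females, and 5 were higher and 1 lower in active males. Podocytes of the glomerulus had 6 markers summing to 17700 ± 582 and 16463 ± 926 in active and inactive females and 10014 ± 735 and 10507 ± 612 in males, with 6 and 5 of 6 lower in males. Macrophages can express Dab2, and their 8 markers summed to 7318 ± 703 and 7271 ± 888 in active and inactive females and 7027 ± 1179 and 6096 ± 789 in males. None of the 8 passed between the periods by limma or edgeR, with 1 in females and 4 in males at an unadjusted p under 0.05, and DESeq2 called 0 and 1. The part of any cell type in the differences of the 5 genes was not tested.

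The annotation places a predicted gene on the opposite strand over 368 bases of Cubn and another over 211 bases of Dab2. Their mean levels were 20.2 and 4.64 normalized counts beside 13255 and 19014 for Cubn and Dab2. No source used here states whether reads were counted by strand.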

How the data were processed

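Poly A RNA of mouse kidney was measured in 24 libraries. The deposited signal values are gene counts that the authors divided by 1 size factor per library, per the labels and the values. The submitters' processing notes name the build GRCm39 and the tools DESeq2 1.28.1, featureCounts, Subread 2.0.6 and Trim Galore 0.6.10. The sources used here do not give the role and order of these tools, the annotation release or the strand setting. Whole reads were recovered from the step of each library, and 100% of values were whole within 0.05.

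Symbols and exon lengths came from GENCODE M21 of the older build GRCm38, and 52073 of 56748 identifiers and all 205 list genes matched. RefSeq start site windows of GRCm38.p6 matched all 5 genes. Protein sequences were not used here.

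Genes with a mean of at least 10 normalized counts, 17333 in number, were fitted as log2 of the normalized count plus 1 over all 24 libraries in R 4.3.3 by limma 3.58.1, with a trended robust prior, 20 residual degrees of freedom and no covariate. P-values of each of 5 contrasts were adjusted by Benjamini and Hochberg over all genes, and an adjusted p under 0.05 was called. A log2 fold is on the scale with 1 added and is given ± SE, and levels are means ± SD of 6 libraries. Ratios to Lrp2 were tested by exact permutation, two-sided, adjusted over 16 tests. Correlations used 100000 permutations within groups, two-sided, adjusted over 10 pairs.

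The 5 genes and all lists were chosen with earlier results of these data known. Besides the 5 genes, the rule named up to 3 called genes of each list with the smallest adjusted p per contrast, of which some are printed, each with a call that held with any 1 library left out, and the 3 genes most like each of the 5. Some genes named by the rule are not reported here. Lrpap1, Fcgrt, Ap2a2, Fcho2, Atp6v0a2 and Clcn2 were also set against other comparisons, whose calls need not hold with 1 library left out. Alternatives were pseudocounts of 0.5 and 5, no filter, TMM, upper quartile and equal totals, the recovered reads tested by DESeq2 1.42.0 and by edgeR 4.0.16, only the groups compared, a plain prior, each library left out, and a replicate block by title number. The fit was tested on simulated data.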

Additional observations from a re-analysis of the deposited data

Results flagged for a closer look

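Amn in inactive males had 1 library far from the others. Replicate 1 was at 1757 normalized counts, while the other 5 lay between 1188 and 1313, and the gap to the nearest was 0.780 of the whole range, above the 95% critical value of 0.625 for 6 samples. Chance takes the gap past that critical value in about 1 in 20 groups, and 20 groups (5 genes in 4 groups) were looked at. How often chance gives a gap as large as 0.780 was not worked out. Without this library the period change of Amn in males was 0.33 on the log2 scale and passed, as given in the report.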

How the results depend on the processing

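Of 870 refits of the log2 folds of the 5 genes, 852 kept both their direction and their side of the threshold, and of 400 refits of the ratios 390 did. A further 7 folds and 7 ratios that passed neither before nor after changed sign, with sizes of at most 0.019 and 0.036. The sign also changed with a call under equal totals, where the male over female fold of Dab2 was -0.20 in the active and -0.16 in the inactive period, and where Clcn5 at 0.049 and 0.032 did not pass. With the upper quartile Dab2 in the inactive period was at 0.053 and did not pass. Equal totals and the upper quartile shift all genes of a library by 1 constant.

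Leaving out 1 library moved the Dab2 sex fold between 0.11 and 0.14 in the inactive period, without a call when female_inactive replicate 3, male_inactive replicate 3 or male_inactive replicate 4 was left out (adjusted p = 0.0574, 0.0718 and 0.0669). In the active period it moved between 0.054 and 0.10 and was called without male_active replicate 2 (adjusted p = 0.0376). The period fold of Amn in males moved between 0.19 and 0.33. The Amn to Lrp2 ratio in males moved between 0.16 and 0.32 across the periods and was called without male_inactive replicate 1 (exact permutation test, adjusted p = 0.0173). The sex difference of the Cubn to Lrp2 ratio in the inactive period moved between -0.14 and -0.083 and was called without female_inactive replicate 6 or male_inactive replicate 5 (exact permutation test, adjusted p = 0.0173 and 0.0381).

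Over all genes, the count of period changes that differed between the sexes was 470, and it was 247 with no filter, 289 with a plain prior, 946 by DESeq2 and 276 to 780 with 1 library left out. The cause was not tested. Period calls in males numbered 2665, and 1756 with only the groups compared, a fit with fewer samples.

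Males and females of a period carry the same title numbers, which are not stated to pair them. Deviations of same-numbered libraries had correlations of -0.104 to 0.124, 1 of 12 over 0.1, and 4 of 12 libraries correlated best with their own number. With that number as a replicate block the counts of called genes were 10297 and 9448 between the sexes, against 10509 and 9662, and 531 for the difference of period changes. No call of the 5 genes changed under the block. Amn had the fewest reads of the 5, 970 to 1660 per library.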
